A study of Mus musculus with 6 samples.

Results

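Inhibitors of myogenesis are genes whose products hold back the myogenic factors of muscle cells. A set of 10 such genes, given by name, was followed in C2C12 cells after knockdown of calponin 3 (Cnn3), an actin-binding protein: Id1, Id2, Id3, Hes1, Hey1, Twist1, Twist2, Snai1, Snai2 and Mdfi. The set is defined by name, not by a measured value. Of the 10 genes, 8 were listed in the deposited data, among 11835 genes in all, and all 8 were among the 11593 genes tested. Twist1 and Mdfi had no transcript in the list and were not analysed here.

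C2C12 is a mouse myoblast line that fuses into myotubes when serum is withdrawn. Cells of both groups were grown with fetal bovine serum, moved to horse serum to differentiate, and the labels name no other allele or agent than the transfected siRNA. The control group, siNC, had 3 libraries from cells transfected with NC siRNA, and the knockdown group, siCNN3, had 3 libraries from cells transfected with CNN3 siRNA. The cell type in the labels is mouse myotube, whereas the study describes differentiating myoblasts, and the harvest time that its methods give for differentiation work is not tied to the sequenced cells. Nothing says that the libraries of a group came from separate cultures, so the p-values below measure the spread between these libraries, which may be technical. Both groups are 1 cell line.

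The myogenic factors (MyoD, Myf5, myogenin) are basic helix-loop-helix proteins that pair with E proteins and bind E-boxes in muscle genes. ID proteins have the helix-loop-helix but no basic region, so they take E proteins into pairs that do not bind DNA. HES and HEY proteins are repressors that Notch signaling induces, TWIST proteins are basic helix-loop-helix factors of mesenchyme, SNAI proteins are zinc finger repressors that occupy E-boxes, and MDFI, the MyoD family inhibitor, binds the myogenic factors directly.

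The study designed 3 siRNAs against CNN3, and the sources used here do not say which was used for the sequenced cells. The antisense strands of the 4 siRNAs are shown because they are the treatment that sets the groups apart, written 5′ to 3′ with the seed (bases 2 to 8) in capitals.
NC siRNA: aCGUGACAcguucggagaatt
CNN3 siRNA1: uUGGUGCCaaugccuaggctt
CNN3 siRNA2: uUAACGCCaaugucaauggt
CNN3 siRNA3: uUCCGACCcauuggugccctt
A match to the seed of CNN3 siRNA1 occurred once in the Twist2 transcript and in 21.1% of the 23949 transcripts with a sequence. The seed of CNN3 siRNA2 had a match in the Hes1 transcript and in 2.65% of all transcripts. The seeds of CNN3 siRNA3 and of the NC siRNA matched 0 of the 8 inhibitors, compared with 5.45% and 6.12% of all transcripts. A match is a description of letters and not a site of action.

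The values are FPKM, a fragment count scaled by transcript length and by the mapped fragments of the library, summed over the transcripts of a gene. The number of reads is not given, so the depth behind each value is unknown. FPKM totals lay between 322621 and 355591 per library. Log2 values correlated across genes at 0.947 to 0.980 within a group and at 0.898 to 0.951 between groups. Cnn3 gave 62.8, 61.4 and 62.8 FPKM in the control libraries (siNC) compared with 19.0, 39.2 and 25.6 FPKM after knockdown (siCNN3). All siCNN3 libraries were thus below all siNC libraries, with a log2 fold change of -1.19 ± 0.242 (SE, n = 3 per group) on the scale of FPKM + 1, and limma with Benjamini-Hochberg adjustment gave an adjusted p of 0.0669. Leaving out each library in turn gave adjusted limma p-values from 0.0477 (without siCNN3 replicate 2, the only one past the threshold) to 0.225 (without siNC replicate 3).

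None of the 8 inhibitors passed the test. Limma with adjustment over all tested genes called 0 of them higher and 0 lower at 0.05, while 1.73% of all tested genes were called higher and 0.336% lower. The share of all calls that were higher was 83.7%, compared with 68.2% after quantile normalization, and 0 inhibitors were called under either. At an unadjusted p under 0.05, 3 inhibitors were higher (Snai2, Twist2 and Hes1), where 9.94% of all tested genes were higher, and 0 were lower, where 6.14% were lower. All 3 siCNN3 libraries lay above all 3 siNC libraries for Id1, Twist2 and Snai2, against 13.8% of all tested genes. For 0 inhibitors did they all lie below, against 9.35%. The fold change was above 0 for 6 inhibitors and below 0 for 2, and its median was 0.33 on the log2 scale, compared with 0.03 over all tested genes, of which 54.0% were above 0. Without siCNN3 replicate 3 the median of the inhibitors was 0.19, with 5 of 7 above 0, and without siCNN3 replicate 2 it was 0.47, with 8 of 8 above 0.

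**Figure D1:**
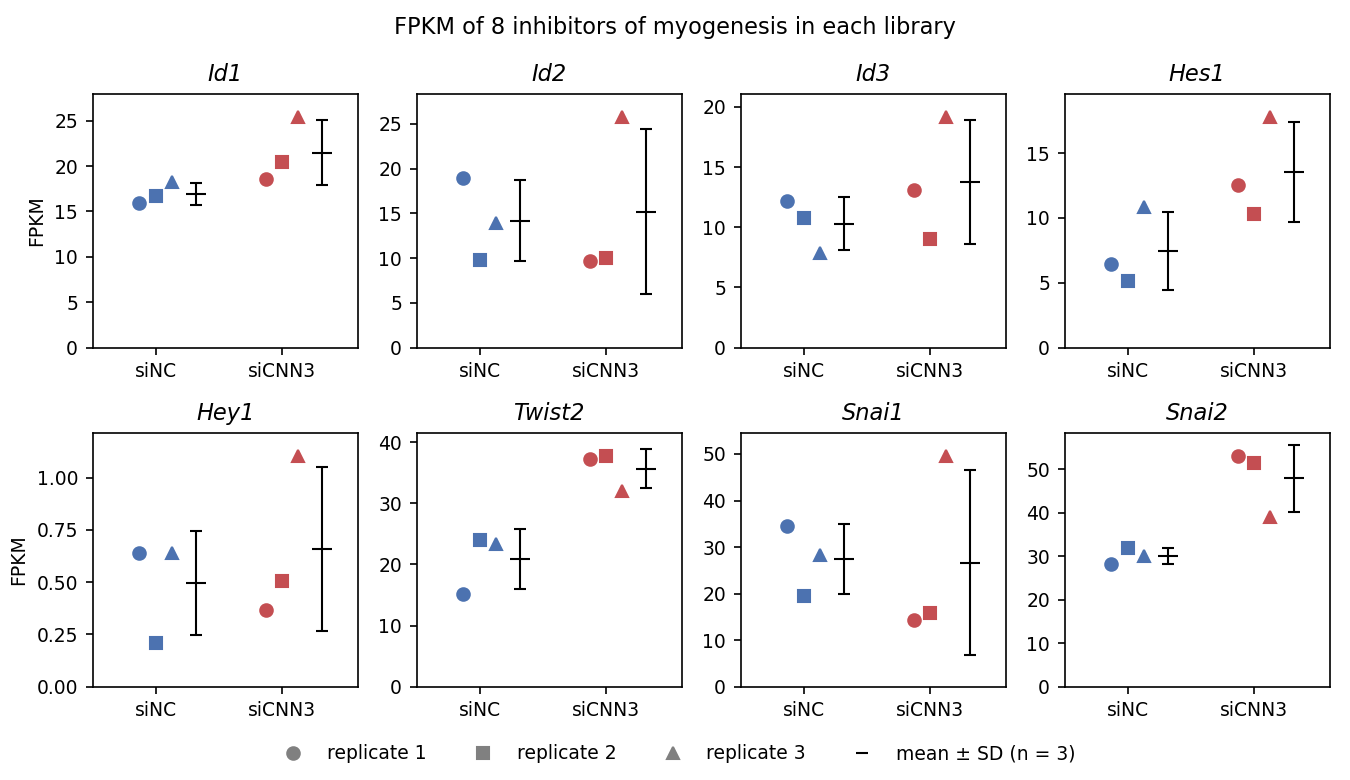
FPKM (vertical axes, each starting at 0) of the 8 listed inhibitors in the 3 siNC libraries (blue) and the 3 siCNN3 libraries (red), with symbols for the replicate number and black bars for the mean ± SD (n = 3). Snai2, Twist2 and Id1 show no overlap between the groups, while siCNN3 replicate 3 stands high in Id2, Id3 and Snai1.

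The inhibitors covered a wide range of levels, which can be compared between genes because FPKM is per length. Over the 6 libraries, Snai2 was the most abundant at a mean of 39.0 FPKM, above 85.4% of all tested genes. Twist2 and Snai1 followed at 28.2 and 27.1 FPKM, then Id1 at 19.2, Id2 at 14.7, Id3 at 12.0 and Hes1 at 10.5 FPKM, close to the median of 9.91 FPKM over all tested genes. Hey1 was near the filter of 0.5 FPKM, at 0.578 FPKM, with 0.975% of the tested genes below it. In siNC, each neighbour in the order Snai2, Snai1, Twist2, Id1, Id2, Id3 and Hes1 overlapped the next over the 3 libraries, and only Hes1 and Hey1 were apart. In siCNN3, the order of means was Snai2, Twist2, Snai1, Id1, Id2, Id3, Hes1 and Hey1, where Snai2 lay above Twist2 in every library and the neighbours from Twist2 to Hes1 overlapped.

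Among the ID genes, Id1 was the one whose groups did not overlap. Id1 lies on chromosome 2 of GRCm38 (chr2:152736251-152737410, plus strand). It measured 15.9, 16.7 and 18.3 FPKM in the siNC libraries, against 18.6, 20.4 and 25.4 FPKM in the siCNN3 libraries. The highest siNC value and the lowest siCNN3 value were close, and the exact permutation test gave p = 0.1, the smallest that 3 against 3 allows. The means were 16.9 ± 1.23 and 21.5 ± 3.54 FPKM (SD, n = 3), and the log2 fold change of 0.32 ± 0.150 (SE) had a 95% interval of -0.04 to 0.67 and an adjusted limma p of 0.360. Without siCNN3 replicate 3 the log2 fold change was 0.19. Of its 2 listed transcripts, the spliced one with 2 exons held 90.9% of the FPKM of the gene.

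Id2, which like Id1 sequesters E proteins, lies on chromosome 12 (chr12:25093799-25097140, minus strand). It gave 18.9, 9.77 and 13.9 FPKM in the control libraries (siNC) compared with 9.73, 10.0 and 25.8 FPKM after knockdown (siCNN3). The groups overlapped, since siCNN3 replicate 3 was the highest of all libraries and siCNN3 replicate 1 the lowest. The means were 14.2 ± 4.57 and 15.2 ± 9.20 FPKM, the log2 fold change was -0.01 ± 0.399 (SE) and the adjusted limma p was 0.996. The 95% interval ran from -0.95 to 0.94, so a difference of nearly 1 on the log2 scale in either direction was within it. Leaving out 1 library turned its direction, from -0.44 without siCNN3 replicate 3 to 0.22 without siCNN3 replicate 1.

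Id3 lies on chromosome 4 (chr4:136143497-136145755, plus strand). It measured 12.2, 10.8 and 7.89 FPKM in the siNC libraries, against 13.1, 9.03 and 19.2 FPKM in the siCNN3 libraries. Again siCNN3 replicate 3 was the highest library, and the groups overlapped. Its log2 fold change was 0.35 ± 0.281 (SE), with a 95% interval of -0.32 to 1.01 and an adjusted limma p of 0.587. This value rested on single libraries, at 0.09 without siCNN3 replicate 3, 0.18 without siNC replicate 3 and 0.60 without siCNN3 replicate 2.

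Summed over Id1, Id2 and Id3, the ID transcripts came to 47.0, 37.2 and 40.1 FPKM in siNC and to 41.4, 39.4 and 70.4 FPKM in siCNN3. The sum of the E protein genes Tcf3, Tcf4 and Tcf12, whose products are the partners that ID proteins bind, was 68.4, 88.6 and 82.3 FPKM in siNC and 83.8, 82.0 and 69.5 FPKM in siCNN3. The ratio of ID to E protein transcripts was therefore 0.688, 0.420 and 0.487 in siNC and 0.494, 0.481 and 1.01 in siCNN3. In siCNN3 replicate 3 the ID transcripts reached the level of the E protein transcripts, and in the other libraries they stayed below it. The mean ratio was 0.532 ± 0.139 in siNC and 0.663 ± 0.304 in siCNN3 (SD, n = 3), and the groups overlapped.

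Hes1, the repressor that Notch signaling induces in many tissues, had a fold change close to that of Twist2. It lies on chromosome 16 (chr16:30064384-30067796, plus strand). It gave 6.42, 5.14 and 10.9 FPKM in the control libraries (siNC) compared with 12.5, 10.3 and 17.8 FPKM after knockdown (siCNN3). Replicate 3 was the highest library of both groups, and siNC replicate 3 lay just above siCNN3 replicate 2, so the groups overlapped. The means were 7.48 ± 3.01 and 13.5 ± 3.86 FPKM (SD, n = 3), a ratio of 1.81. The log2 fold change was 0.80 ± 0.295 (SE), with a 95% interval of 0.10 to 1.50 and an adjusted limma p of 0.248. Leaving out each library in turn gave 0.60 to 1.07, and without siNC replicate 2 or siCNN3 replicate 3 Hes1 was below Twist2 and Snai2.

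Hey1, a related repressor under Notch control, lies on chromosome 3 (chr3:8663359-8667256, minus strand). Its FPKM were 0.641, 0.209 and 0.640 in siNC and 0.368, 0.504 and 1.11 in siCNN3. The groups overlapped, and at this level a pseudocount of 1 understates any change. Limma gave a log2 fold change of 0.14 ± 0.231 (SE) with an adjusted p of 0.810.

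Twist2, which binds E proteins and MyoD and is a marker of mesenchymal cells, was higher in every siCNN3 library than in any siNC library. It lies on chromosome 1 (chr1:91801461-91848028, plus strand). It measured 15.2, 24.0 and 23.3 FPKM in the siNC libraries, against 37.2, 37.8 and 32.0 FPKM in the siCNN3 libraries. The siCNN3 libraries were close to each other, and siNC replicate 1 was the lowest library. The means were 20.8 ± 4.87 and 35.6 ± 3.20 FPKM (SD, n = 3), a ratio of 1.71, and the exact permutation test gave p = 0.1. Its log2 fold change was 0.77 ± 0.192 (SE), with a 95% interval of 0.31 to 1.23 and an adjusted limma p of 0.108. Leaving out each library in turn gave 0.57 (without siNC replicate 1) to 0.88 (without siNC replicate 2). Of all libraries, siNC replicate 1 had the lowest FPKM total (322621) and the most transcripts at 0 (2131).

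The SNAI genes had different profiles. Snai1 lies on chromosome 2 (chr2:167538195-167542814, plus strand), and it gave 34.4, 19.6 and 28.3 FPKM in the control libraries (siNC) compared with 14.4, 15.9 and 49.6 FPKM after knockdown (siCNN3). Replicates 1 and 2 of siCNN3 were below every siNC library and replicate 3 was above every one, a coefficient of variation of 74.7% within siCNN3. For Snai1 the log2 fold change was -0.23 ± 0.466 (SE), with a 95% interval of -1.34 to 0.87 and an adjusted limma p of 0.845. Its direction rested on single libraries, at -0.78 (adjusted limma p 0.127) without siCNN3 replicate 3, 0.08 without siCNN3 replicate 1 and 0.01 without siCNN3 replicate 2.

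Snai2, also called Slug, had the lowest p of the 8 inhibitors in the fit reported here. Twist2 had a lower one with median-of-ratios scaling, with quantile normalization and without siNC replicate 1, 2 or 3. With a replicate block and without siNC replicate 3, Hes1 had the lowest of the 8. Snai2 lies on chromosome 16 (chr16:14705852-14709385, plus strand). It measured 28.2, 31.9 and 30.1 FPKM in the siNC libraries, against 53.2, 51.4 and 39.1 FPKM in the siCNN3 libraries. The siNC libraries were within a narrow range, and siCNN3 replicate 3 was the nearest to them. The means were 30.1 ± 1.83 and 47.9 ± 7.66 FPKM (SD, n = 3), a ratio of 1.59, and the exact permutation test gave p = 0.1. The log2 fold change was 0.64 ± 0.148 (SE), with a 95% interval of 0.29 to 0.99 and an adjusted limma p of 0.0885. Without siCNN3 replicate 3 it was 0.78, with an adjusted limma p of 0.0208, which passed the threshold.

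**Figure D2:**
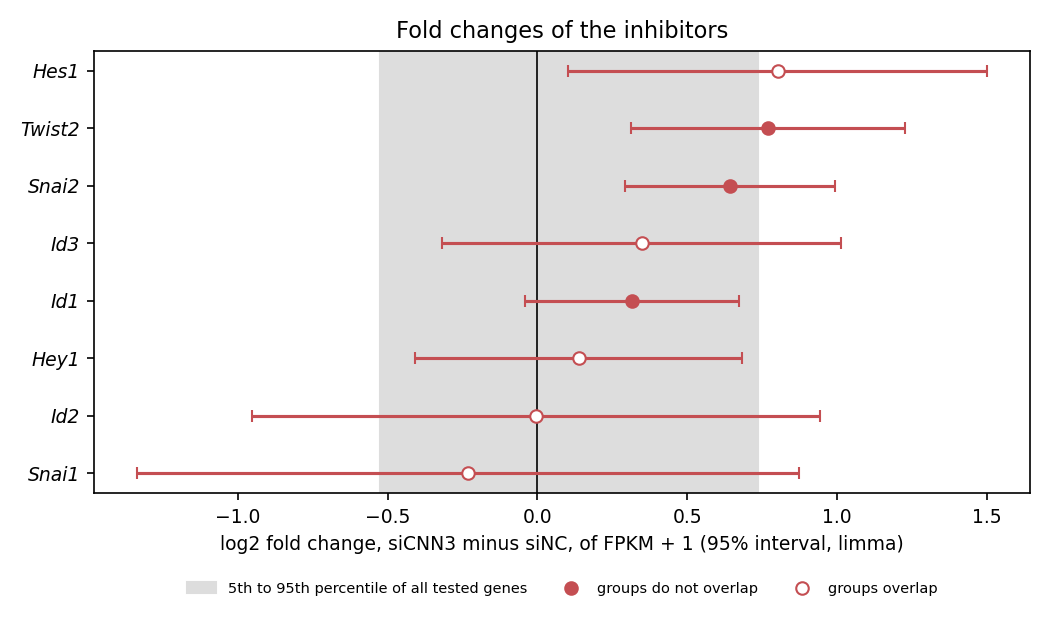
Log2 fold change of FPKM + 1, siCNN3 minus siNC (horizontal axis), of the 8 inhibitors, with limma 95% intervals as bars and filled points where the groups did not overlap. The grey band spans the range from -0.53 to 0.74 that holds the middle of all tested genes between their 5th and 95th percentiles. Hes1 (0.80) and Twist2 (0.77) lie just past its upper edge, and Id2 (-0.01) lies close to 0.

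The genes whose profile over the 6 libraries was most like that of Snai2 were Plcl2, March5 and Rsl1d1, among tested genes that averaged 1 FPKM or more. The root mean square difference of their centred log2 values from those of Snai2 was 0.0369, 0.0402 and 0.0469. Plcl2 gave 4.97, 5.70 and 5.04 FPKM in the control libraries (siNC) compared with 9.51, 9.10 and 7.15 FPKM after knockdown (siCNN3). None of these 3 genes was called, with adjusted limma p-values of 0.110, 0.0935 and 0.0772.

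One siCNN3 library set much of the spread of the inhibitors. Within siCNN3, 6 of the 8 inhibitors (75%) had their highest value in replicate 3, compared with 38.0% of all tested genes. The log2 value of replicate 3 was above the mean of replicates 1 and 2 by 1.65 for Snai1, 1.30 for Id2, 0.77 for Id3, 0.61 for Hes1, 0.55 for Hey1 and 0.37 for Id1. Twist2 and Snai2 were the exceptions, with differences of -0.22 and -0.41. Replicates 1 and 2 differed from each other by no more than 0.26 for every inhibitor but Id3, where the difference was 0.49. In siNC, Id2, Hey1 and Snai1 were highest in replicate 1 and lowest in replicate 2. Over all tested genes, log2 deviations from the group mean were compared between libraries. Those of siCNN3 replicate 3 correlated at 0.44 with siNC replicate 1 and at -0.45 with siNC replicate 2. A like order of libraries was thus not limited to the inhibitors, and the share of all tested genes with this exact order was not counted.

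Bhlhe40, a repressor related to the HES family that was chosen after its values were seen, had the same highest and lowest library of each group as Id2, Hey1 and Snai1. It measured 45.3, 21.9 and 27.0 FPKM in the siNC libraries, against 19.3, 20.9 and 54.5 FPKM in the siCNN3 libraries. It had siNC replicate 1 and siCNN3 replicate 3 as the highest library of its group.

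**Figure D3:**
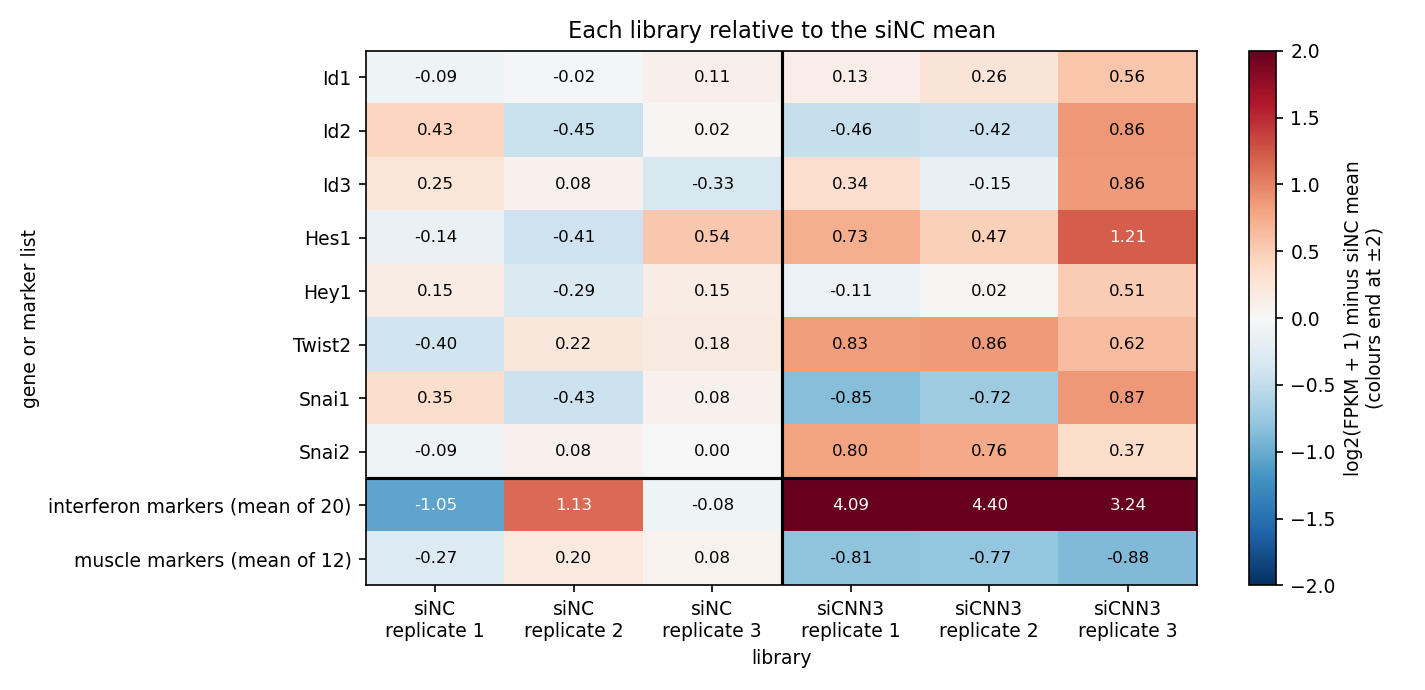
Log2(FPKM + 1) of each library (columns) minus the siNC mean, for the 8 inhibitors and for the means of 20 interferon response markers and 12 muscle markers (rows), in colour and as printed values. Snai2 and Twist2 are above 0 in all siCNN3 libraries, while Id2 and Snai1 are below 0 in replicates 1 and 2 and above 0 in replicate 3, at 0.86 and 0.87.

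The libraries also differed in other ways. Of 20 interferon response markers, 14 were called higher in siCNN3 and 0 lower, and their mean log2 value relative to siNC was -1.05, 1.13 and -0.08 in siNC and 4.09, 4.40 and 3.24 in siCNN3. Within siCNN3, replicate 3 was the lowest library for these markers, as it was for Twist2 and Snai2, and the highest for the other inhibitors. Of 12 tested myoblast and myotube markers, 4 were called lower (Acta1, Mylpf, Tnnt3 and Myh3, which encode proteins of the contractile apparatus) and 0 higher, and their mean was between -0.88 and -0.77 in siCNN3 and between -0.27 and 0.20 in siNC. The markers Pax7 and Ttn were not listed, while Acta1 and Myog were present. Blood cell markers were mostly not listed, with 6 of 14 tested. Of these, 2 globin genes, Hbb-bs and Hbb-bt, were called lower, and the summed FPKM of the 6 genes was 235 to 658 in siNC and 54.0 to 76.2 in siCNN3, while Ptprc and Alas2 were not listed. Of 5 endothelial markers only Tek was tested, and it was not called. Of 5 adipocyte markers only Fabp4 was tested, and it was called lower (log2 fold change -1.45, adjusted limma p 0.0152). Both groups are 1 cell line, and for the muscle markers fewer differentiated cells and less RNA per cell cannot be told apart in such samples. The part of all these markers in the values of the inhibitors was not tested.

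The E proteins and myogenic factors are what the inhibitors act on, and 0 of 6 tested genes were called. Myog, which encodes myogenin and drives terminal differentiation, measured 1.23, 3.07 and 2.26 FPKM in the siNC libraries, against 0.785, 0.907 and 0.485 FPKM in the siCNN3 libraries (log2 fold change -0.85, adjusted limma p 0.159). Its groups did not overlap, with siCNN3 lower. The ratio of its means was 0.332, and at this level a pseudocount of 1 understates the change. Myf5, which acts in early myoblasts, gave 3.55, 5.64 and 4.84 FPKM in the control libraries (siNC) compared with 13.0, 11.4 and 5.40 FPKM after knockdown (siCNN3), a log2 fold change of 0.88 with an adjusted limma p of 0.238. Here siCNN3 replicate 3 lay within the siNC range, and without it the log2 fold change was 1.23 (adjusted limma p 0.0299). Myod1 had a log2 fold change of -0.42 (adjusted limma p 0.312), and the E protein genes Tcf3, Tcf4 and Tcf12 had -0.05, -0.10 and 0.04. Myf6 was not listed.

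BMP signaling induces the Id genes through SMAD proteins, and 0 of 22 tested genes of the BMP list were called. Their median log2 fold change was 0.02. Bmp4, a ligand, measured 8.80, 9.92 and 7.81 FPKM in the siNC libraries, against 3.58, 4.07 and 5.67 FPKM in the siCNN3 libraries. All siCNN3 libraries were below all siNC libraries, with a log2 fold change of -0.87 ± 0.187 (SE) and an adjusted limma p of 0.0772. Without siCNN3 replicate 3 it was -1.02, and Bmp4 was called lower (adjusted limma p 0.0263). Hjv, a BMP coreceptor of muscle and liver, had a log2 fold change of -0.64 (adjusted limma p 0.185). Its means were 0.887 FPKM in siNC and 0.191 FPKM in siCNN3, near the filter, where a pseudocount of 1 understates the change.

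The Notch list, which holds the ligands, receptors and processing enzymes upstream of Hes1 and Hey1, had 0 of 28 tested genes called and a median log2 fold change of 0.00. Mib1, a ubiquitin ligase that activates Notch ligands, had a log2 fold change of 0.50 (adjusted limma p 0.151), and the receptor Notch2 had one of -0.41 (adjusted limma p 0.168). The groups did not overlap for either gene.

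TGF-beta signaling is known to induce Snai1 and Snai2, and 0 of 23 tested genes of its list were called. Their median log2 fold change was 0.05, with a range from -0.60 to 1.29. At an unadjusted limma p under 0.05, 5 of the 23 were higher and 4 lower, where the shares of all tested genes were 9.94% and 6.14%. The groups did not overlap for 6 genes that were higher and 4 that were lower, against 13.8% and 9.35% of all tested genes. Skil, a feedback inhibitor of SMAD proteins, gave 5.51, 3.59 and 4.71 FPKM in the control libraries (siNC) compared with 12.6, 7.97 and 16.7 FPKM after knockdown (siCNN3). Its groups did not overlap, and its log2 fold change was 1.22 ± 0.273 (SE) with an adjusted limma p of 0.0832. Ltbp1, which anchors latent TGF-beta in the matrix, had a log2 fold change of 0.50 (adjusted limma p 0.110). The receptor gene Tgfbr2 was called lower with quantile normalization (log2 fold change -0.70, adjusted limma p 0.0470). Without siCNN3 replicate 3, Inhbb was called lower and Smad2 higher (adjusted limma p 0.0409 and 0.0494).

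Among 7 tested relatives of the inhibitors, 0 were called. Mdfic, the relative of the unlisted Mdfi, measured 11.1, 12.9 and 11.4 FPKM in the siNC libraries, against 26.3, 17.2 and 17.1 FPKM in the siCNN3 libraries. All siCNN3 libraries were higher, with a log2 fold change of 0.71 and an adjusted limma p of 0.129. Hes6, which opposes Hes1 and favours differentiation, had a log2 fold change of -0.51 (adjusted limma p 0.267).

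The corepressors that HES and SNAI proteins recruit had 0 of 17 tested genes called, with a median log2 fold change of -0.05. The lowest p-values were those of Tle2, a Groucho family corepressor (log2 fold change -0.77, adjusted limma p 0.198), and of Limd1, a LIM protein that binds SNAI factors (log2 fold change -1.15, adjusted limma p 0.294). Without siCNN3 replicate 3, where Limd1 measured 10.8 FPKM compared with 2.25 and 2.90 FPKM in the other siCNN3 libraries, Limd1 was called lower, by a log2 fold change of -1.72 (adjusted limma p 0.00684).

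The mesenchymal genes include many that rise in cells where SNAI and TWIST factors are active. Of 18 tested genes, 1 was called, and it was lower: Lox, the lysyl oxidase that crosslinks collagen, gave 320, 304 and 380 FPKM in the control libraries (siNC) compared with 220, 209 and 202 FPKM after knockdown (siCNN3). Its log2 fold change was -0.66 ± 0.113 (SE), with an adjusted limma p of 0.0409. It was not called with a replicate block, in limma without a trend, or without any of siNC replicates 1, 2 and 3 and siCNN3 replicates 1 and 2. Under 1 alternative each, 3 other genes of the list were called lower. These were S100a4 with median-of-ratios scaling (adjusted limma p 0.0469), Acta2 without siNC replicate 1 (log2 fold change -1.02, adjusted limma p 0.0269) and Fn1 without siCNN3 replicate 3 (log2 fold change -0.80, adjusted limma p 0.0327). The epithelial genes of the list (Cdh1, Ocln, Cldn1 and Krt18) were not listed in the data. The log2 fold change was below 0 for 17 of the 18 genes, with a median of -0.31, while that of the inhibitors was 0.33. Over all 7 lists, 118 genes were tested, 0 were called higher and 1 (0.847%) lower. At an unadjusted p under 0.05, 9 of the 118 (7.63%) were higher and 20 (16.9%) lower, where the shares of all tested genes were 9.94% and 6.14%.

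**Figure D4:**
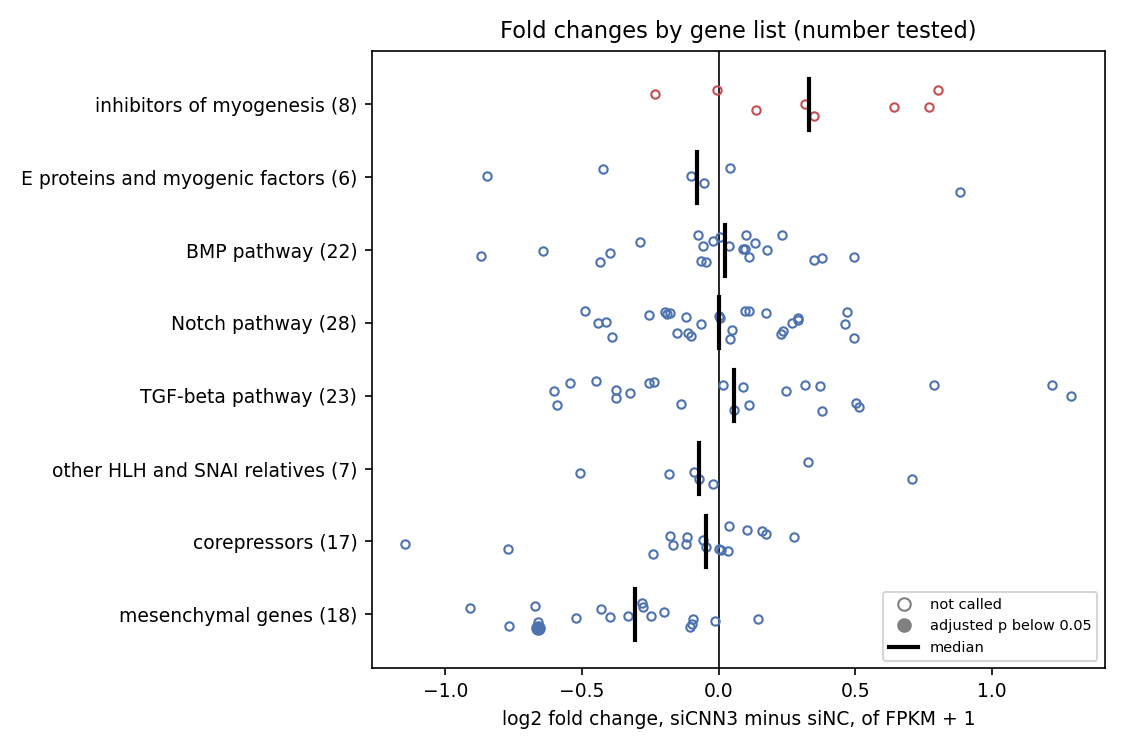
Log2 fold change of FPKM + 1, siCNN3 minus siNC (horizontal axis), of every tested gene of the inhibitors and of 7 gene lists (rows, number tested in parentheses), with open points for genes that were not called, filled points for called genes and black bars for medians. The only filled point is Lox (-0.66), and the mesenchymal genes lie mostly below 0.

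RefSeq windows (GRCm38.p6) around a transcript start were at hand for 4 of the 8 listed inhibitors, Id2, Id3, Snai1 and Twist2. The RefSeq starts of Snai1 and Twist2 are also the first GENCODE starts of these genes. That of Id2 is the start of its most abundant transcript but lies 1048 bases inside the gene, and 161 of the 250 bases before it are in an exon of another transcript. That of Id3 lies 325 bases inside the gene, with all 250 bases before it in an exon, so these windows of Id2 and Id3 are not those of the first annotated starts. The 250 bases before the start of Snai1 and Twist2 are shown, because these genes had different profiles and are themselves factors that act at E-boxes, written 5′ to 3′ with any E-box (CANNTG) in capitals.
Snai1, chr2:167537945-167538194, plus strand: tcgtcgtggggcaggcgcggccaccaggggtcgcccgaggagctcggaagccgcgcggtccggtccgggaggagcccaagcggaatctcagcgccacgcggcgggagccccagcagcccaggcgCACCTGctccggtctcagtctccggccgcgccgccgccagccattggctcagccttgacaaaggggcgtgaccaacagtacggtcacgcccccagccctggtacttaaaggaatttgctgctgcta
Twist2, chr1:91801211-91801460, plus strand: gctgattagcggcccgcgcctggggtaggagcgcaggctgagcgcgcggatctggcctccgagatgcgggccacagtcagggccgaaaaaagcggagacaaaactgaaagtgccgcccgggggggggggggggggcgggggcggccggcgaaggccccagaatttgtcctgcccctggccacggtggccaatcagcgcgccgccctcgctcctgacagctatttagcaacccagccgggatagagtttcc
Searched on both strands, Snai1 held 1 E-box, whose first base is at -126 from the start, and Twist2 held 0. Windows of 300 bases, which reach 50 bases past the start, held an E-box in 72.3% of 32851 promoters. Id2 had 1 E-box in its window and Id3 had 0. The letters CACNAG (the N-box of HES proteins, in 42.5% of promoters) occurred once each in Id2, Snai1 and Twist2. Their first base is at 16, -229 and 43 from the start, so the match of Twist2 lies past the start and outside the bases shown. The letters GGCGCC of a SMAD element (11.9%) occurred in Id2. Neither GTGGGAA of the Notch effector RBPJ (6.38%) nor GAAANNGAA of the interferon element (8.56%) occurred in any of these 4 windows. The search covered only these letters in these windows.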

How the data were processed

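RNA of 3 siNC and 3 siCNN3 libraries was measured by the authors, who deposited FPKM for 24023 Ensembl transcripts. The submitters' processing notes name Bowtie 0.12.2 and the builds mm8 and mm10 without a role, and the program that made the FPKM values is not given in the sources used here. Transcripts were matched without version to GENCODE vM21 (GRCm38), which matched 23949 and left out 74, and FPKM were summed by gene symbol. The FPKM go down to 1e-06 and are not multiples of whole reads, so the depth of the libraries remains unknown. Exact zeros, of which a library held 978 to 2131, can be failed estimates, but none of the 10 transcripts of the inhibitors held one.

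Genes that averaged 0.5 FPKM or more over the 6 libraries were tested. log2(FPKM + 1) was fitted with limma 3.58.1 in R 4.3.3 (two-sided moderated test, mean-variance trend, Benjamini-Hochberg adjustment over all 11593 genes, threshold 0.05). Called means past this threshold. The procedure was tested on simulated data with larger fold changes than those of the inhibitors. That test therefore does not show how often changes of their size would be called. Single values used two-sided exact permutation tests. Motifs and figures used Python 3.11.15, pandas 2.3.3 and matplotlib 3.10.9. The inhibitors, lists and tests were chosen with earlier results of these data known. Named are every inhibitor, the called genes of a list or else its 2 genes with the lowest p, and 3 genes like Snai2. Myod1, the E protein genes, the markers and Bhlhe40 were named after their values were seen.

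Alternatives were a pseudocount of 0.1, median-of-ratios scaling, no filter, quantile normalization, a replicate block, a minimum of 5 FPKM, no trend, transcripts with a 0 left out, the most abundant transcript alone and each library left out.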

Additional observations from a re-analysis of the deposited data

How the results depend on the processing

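None of the 8 inhibitors was called under any alternative except Snai2 without siCNN3 replicate 3, so that leaving out a library gave 0 to 1 called inhibitors. The log2 fold changes of Id1, Id3, Hes1, Twist2 and Snai2 stayed above 0 in all alternatives, with adjusted limma p-values of 0.0208 to 0.330 for Snai2, 0.0627 to 0.357 for Twist2 and 0.138 to 0.499 for Hes1. Without a library in turn, Id2 ranged from -0.44 to 0.22, Snai1 from -0.78 to 0.076 and Hey1 from -0.0091 to 0.26, each crossing 0. Hey1 could not be tested with a filter at 5 FPKM or without siCNN3 replicate 3, where its mean was under the filter. The log2 fold change of Cnn3 ranged from -1.46 to -0.95 without a library in turn, and its adjusted limma p was 0.124 with the replicate block. Over all genes, 239 were called, of which 83.7% were higher. Leaving out a library gave 20 (without siNC replicate 3) to 602 (without siCNN3 replicate 3), with 99 without siNC replicate 1, 46 without siCNN3 replicate 1 and 32 without siCNN3 replicate 2. Leaving out transcripts with a 0 gave 152. The share of calls that were higher was 77.7% with median-of-ratios scaling and 68.2% with quantile normalization, with 63 and 93 genes lower in place of 39. Of the genes of the 7 lists, both scalings called 2, limma without a trend 0, and leaving out a library 0 to 7, with 7 without siCNN3 replicate 3 (Bmp4, Fn1, Inhbb, Limd1, Lox, Myf5 and Smad2). The cause of these shifts was not tested. Same-numbered libraries deviated from their group means with correlations of -0.28, 0.31 and -0.02, while other pairs reached -0.45 and 0.44. The numbers were therefore not taken to pair the samples. A fit with the replicate number as a block called 68 genes, 0 genes of the lists and 0 inhibitors. With the depth unknown, no counting error could be set beside any value.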
